A study of Mus musculus with 196 samples.

Results

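The meiotic crossover factors described here are 7 genes of the 25706 endogenous genes in the deposited table, chosen by name: Msh4, Msh5, Hfm1, Tex11, Rnf212, Mlh3 and Ccnb1ip1. In meiotic prophase, programmed DNA breaks are repaired from the homologous chromosome, and a small share of the repair intermediates is stabilised and matured into crossovers, which hold homologues together until they separate. MSH4 and MSH5 form a clamp-like heterodimer, MutSγ, that binds branched repair intermediates, and HFM1 is the mammalian relative of the yeast helicase Mer3. TEX11, encoded on the X chromosome, is related to yeast Zip4, RNF212 is a RING protein that promotes SUMO modification, CCNB1IP1 (HEI10) is a RING ubiquitin ligase, and MLH3 is the nuclease subunit of MutLγ, the complex that resolves the intermediates. In female mice these steps take place in fetal oocytes.

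The study measured RNA in mouse primordial germ cell-like cells (PGCLCs), germ cells made from embryonic stem cells and expanded in culture, to follow entry into the oogenic and meiotic programme. All PGCLC lines had a 129S1 and C57BL/6 background and carried the reporter transgenes Prdm1-mVenus and Dppa3-ECFP, and PGCLCs were sorted by the mVenus reporter onto m220 feeder cells, cultured, and sorted by the ECFP reporter at harvest. In OE_A2, a single clone, doxycycline (Dox) drove a Zglp1 coding sequence with IRES-mCherry from a tetO/mCMV promoter through an EF1a-rtTA transgene. Its groups were Dox with retinoic acid (DoxRA), Dox alone and untreated control medium, Dox with BMS (BMSDox) and BMS alone, and Dox in medium SerumMinusWIN (SerumMinusWINDox) and that medium alone. BMS and WIN are named here only as the labels give them. OESko_A11, a single clone, carried the same transgenes on a Stra8-/- background and was given DoxRA or control medium. The Zglp1-/- clones E5 and G10 (Zko) received BMP2 with retinoic acid (B2RA), BMP2 or control medium, the Stra8-/- clones B6 and F6 (Sko) received B2RA or control medium, and the parent line H18 received B2RA or BMP2, with no control medium at day 9. Ranges and correlations over all PGCLC libraries also take in H18 with retinoic acid alone (RA) or control medium at days 3.5 and 4, OE_A2 in SerumMinus medium, and OE_A2 and Zko cells from the start of culture. Embryonic germ cells, of an ICR and C57BL/6 background with a Dppa3-EGFP or Ddx4-RFP transgene, gave 1 library each for oocytes of E15.5 and E14.5 and for primordial germ cells of E9.5.

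The 3′ end of each transcript was sequenced, and values are reads assigned to a gene per 1000000 reads on endogenous genes (RPM). With 1 tag per transcript, RPM was not divided by transcript length. The 191 PGCLC libraries fell into 98 groups of line or clone, treatment and culture day, mostly of 2 libraries, and held 877040 to 5196593 reads, so that 1 read was worth 0.192 to 1.14 RPM. The labels do not say that replicates were separate cultures, so p-values measure the spread between libraries, which may be technical, and tests over a pair of clones hold no estimate of the spread between clones. Changes are differences of mean log2(RPM + 1), which understate changes of low genes. Testing required 10 RPM in 2 or more of the compared libraries, and a call required both a limma adjusted p below 0.05 and a change of 1 or more in size. A member that was tested only because it was high in one group had to differ, so the counts of members below are descriptions, set beside the share of all tested genes called the same way. Dox and DoxRA of OE_A2 were compared with the same control libraries. Dox was given only to lines that carry the transgene, so the drug's own effect and the transgene's cannot be told apart. The tags of Zglp1 and Stra8 are at the transcripts' 3′ ends and do not check the deletions: under B2RA at day 9, Zglp1 read 16.3 to 32.7 RPM in Zko and 48.8 and 53.6 RPM in H18, and Stra8 read 52.7 to 688 RPM in Sko and 658 and 805 RPM in H18.

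In the GRCm38 build all 7 genes lie on the minus strand: Msh4 at chr3:153857149-153906138, Msh5 at chr17:35028605-35046745, Hfm1 at chr5:106840192-106926321, Tex11 at chrX:100838648-101059667, Rnf212 at chr5:108729290-108774982, Mlh3 at chr12:85234520-85270599 and Ccnb1ip1 at chr14:50789248-50807732. No other annotated gene overlaps the last 1000 bp of any member, where 3′ tags fall, although 1 to 3 other genes overlap every member but Msh5 elsewhere. The strand used in counting is not given in the sources used here. Hfm1 and Rnf212 are on the same chromosome.

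Promoter windows of 300 bases (250 before to 50 after the start, RefSeq sequences of GRCm38.p6) were available for 6 members, with 2 entries for Mlh3, and those of 4 members are printed, 5′ to 3′ on the gene's strand, because these genes give the extremes of base composition and include the MutSγ partners. Capitals mark matches, on either strand, to GATAA (the core of GATA-type zinc finger sites), TCCCGC (E2F), CNCCTCAG (the STRA8 motif), CACGTG (an E-box) or AGGTCA (a nuclear receptor half-site). Msh4 is at chr3:153904842-153905141, Msh5 at chr17:35046573-35046872, Hfm1 at chr5:106925841-106926140 and Ccnb1ip1 at chr14:50795679-50795978, all on the minus strand.
Msh4: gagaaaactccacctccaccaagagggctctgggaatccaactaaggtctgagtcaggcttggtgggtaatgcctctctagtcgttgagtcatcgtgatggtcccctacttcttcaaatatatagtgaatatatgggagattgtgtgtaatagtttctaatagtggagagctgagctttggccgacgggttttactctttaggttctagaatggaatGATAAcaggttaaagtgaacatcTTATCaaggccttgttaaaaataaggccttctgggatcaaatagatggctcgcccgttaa
Msh5: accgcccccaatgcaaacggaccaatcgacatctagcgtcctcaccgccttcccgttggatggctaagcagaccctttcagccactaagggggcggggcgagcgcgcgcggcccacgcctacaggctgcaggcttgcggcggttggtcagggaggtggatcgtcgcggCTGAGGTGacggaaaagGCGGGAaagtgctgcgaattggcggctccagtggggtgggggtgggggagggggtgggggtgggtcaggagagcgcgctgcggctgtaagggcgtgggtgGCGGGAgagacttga
Hfm1: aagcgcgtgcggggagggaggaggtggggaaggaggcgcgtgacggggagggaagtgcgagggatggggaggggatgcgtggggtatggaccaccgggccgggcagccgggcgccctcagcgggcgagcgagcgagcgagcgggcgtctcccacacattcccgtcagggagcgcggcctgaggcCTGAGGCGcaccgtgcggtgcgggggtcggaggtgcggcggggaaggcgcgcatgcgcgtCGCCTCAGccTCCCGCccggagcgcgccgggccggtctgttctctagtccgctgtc
Ccnb1ip1: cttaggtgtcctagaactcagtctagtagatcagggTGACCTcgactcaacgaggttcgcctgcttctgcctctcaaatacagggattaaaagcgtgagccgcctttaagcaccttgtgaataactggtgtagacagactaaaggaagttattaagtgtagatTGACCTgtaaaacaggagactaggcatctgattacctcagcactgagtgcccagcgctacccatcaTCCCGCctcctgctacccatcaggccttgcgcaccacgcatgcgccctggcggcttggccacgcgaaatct

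Msh4 and Msh5, whose proteins act as a heterodimer, had unlike promoter windows. The Msh5 window spans the 5′ end of its annotated gene, whereas that of Msh4 lies inside its gene, as do those of Hfm1 and Ccnb1ip1. The windows thus compare RefSeq starts that are not all at the outermost end of the gene. The Msh4 window held 43.3% G and C with 6 CpG dinucleotides and 2 GATAA matches, and the Msh5 window held 67.3% G and C with 27 CpG dinucleotides, 2 TCCCGC matches and 1 CNCCTCAG match. Hfm1 was the richest in G and C, at 75.3% with 41 CpG dinucleotides, and held 1 TCCCGC and 2 CNCCTCAG matches. Ccnb1ip1 held 52% G and C, 13 CpG dinucleotides, 1 TCCCGC and 2 AGGTCA matches. The windows not printed were those of Rnf212 (59.7% G and C, 22 CpG dinucleotides, 1 TCCCGC and 1 CACGTG match) and Mlh3 (51.7% G and C, no match). Over all 32851 promoters in the same table the medians were 52.7% G and C and 7 CpG dinucleotides. Matches were found in 25.4% of those promoters for GATAA, 20% for TCCCGC, 7.94% for CNCCTCAG, 7.15% for CACGTG and 16.3% for AGGTCA. A match is a run of letters in this window and was not tested as a binding site.

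Across the PGCLC libraries the members spanned very different levels. Hfm1 reached the highest level of the 7, with a median of 8.38 RPM over the 191 libraries and a maximum of 723 RPM, and it was detected in every library. Ccnb1ip1 had the highest median, 15.7 RPM, with a range of 6.65 to 148 RPM, and reached 10 RPM in 161 libraries. Msh5 (median 3.95, maximum 142 RPM), Tex11 (median 2.82, maximum 135 RPM), Rnf212 (median 0.793, maximum 133 RPM) and Msh4 (median 0.679, maximum 96.5 RPM) were low in most libraries, and Rnf212 and Msh4 were listed at 0 in 48 and 45 of them. Mlh3 never exceeded 6.77 RPM, reached 10 RPM in no library and was tested in no comparison. For 6 of the 7 members, Tex11 being the exception, OE_A2 with DoxRA at day 9 was the group with the highest mean.

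In OE_A2 all 6 tested members were higher with Dox than in control medium at day 9, with and without retinoic acid. At that day 25.6% of all tested genes were called higher with DoxRA and 13.4% with Dox. The median change of the 6 members was 4.16 with DoxRA and 3.33 with Dox on the log2 scale, beside medians of 0.11 and 0.06 over all tested genes.

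Of the MutSγ pair, Msh4 read 74.5 and 96.5 RPM with DoxRA, 27.9 and 35.2 RPM with Dox, and 0 and 0.359 RPM in control libraries. The control libraries thus held at most 1 read of Msh4, and its change depends on the pseudocount. That change was 6.20 ± 0.46 with DoxRA (SE, limma adjusted p = 1.3e-22) and 4.79 ± 0.46 with Dox (adjusted p = 1e-14). Over the alternative settings it lay between 4.12 and 8.45 with DoxRA and between 2.81 and 7.09 with Dox. Msh5 read 142 and 122 RPM with DoxRA, 73.9 and 62.8 RPM with Dox, and 4.13 and 6.11 RPM in control libraries. No control library came near the induced ones, and the changes of Msh5 were 4.45 ± 0.52 with DoxRA (limma adjusted p = 2e-12) and 3.52 ± 0.52 with Dox (adjusted p = 6e-08).

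The helicase gene Hfm1 reached 475 and 723 RPM with DoxRA and 351 and 309 RPM with Dox, against 10.7 and 24.8 RPM in control libraries. It was the most abundant member in each of these day-9 libraries with DoxRA or Dox, with changes of 5.08 ± 0.51 with DoxRA (limma adjusted p = 1.7e-15) and 4.25 ± 0.51 with Dox (adjusted p = 5.9e-11).

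Tex11, the Zip4 relative, read 76 and 53.4 RPM with DoxRA, 53.7 and 47.6 RPM with Dox, and 8.6 and 11.5 RPM in control libraries. Its libraries with DoxRA and with Dox overlapped, and both groups lay above the control libraries. The change was 2.56 ± 0.57 with DoxRA (limma adjusted p = 5.8e-05) and 2.24 ± 0.57 with Dox (adjusted p = 0.0012).

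Both RING protein genes also rose. Rnf212 read 81.7 and 133 RPM with DoxRA, 63.6 and 60.1 RPM with Dox, and 6.2 and 6.11 RPM in control libraries. This is a change of 3.88 ± 0.56 with DoxRA (limma adjusted p = 2.4e-09) and 3.13 ± 0.56 with Dox (adjusted p = 3.9e-06). Ccnb1ip1 read 93.6 and 148 RPM with DoxRA, 63.2 and 57.9 RPM with Dox, and 22.4 and 14.4 RPM in control libraries. It had the smallest change with Dox of the 6, 1.70 ± 0.37 (limma adjusted p = 0.00013), on a control level like that of Hfm1, and its change with DoxRA was 2.65 ± 0.37 (adjusted p = 8.2e-10).

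Mlh3 read 3.18 and 6.38 RPM with DoxRA, 2.58 and 1.52 RPM with Dox, and 3.44 and 0 RPM in control libraries. The libraries with DoxRA overlapped those in control medium and lay outside the range of those with Dox. With no filter on low values Mlh3 changed by 1.40 with DoxRA against control medium (limma adjusted p = 0.083), by 0.51 with Dox against control medium (0.75) and by 0.89 with DoxRA against Dox (0.42). None of these was called, which at such low levels does not show that the groups were equal.

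Marker lists were read in the same libraries. Summed germ cell markers were 3010 to 3060 RPM with DoxRA, 2980 to 3290 RPM with Dox and 1920 to 2570 RPM in control libraries, and feeder and stroma markers were 375 to 992, 448 to 462 and 584 to 687 RPM. Gonadal soma markers summed to at most 107 RPM in the day-9 libraries of the lines described, with Amh listed at 0. The 4 male prospermatogonia markers summed to 10.1 to 11.2 RPM with DoxRA, 29.7 to 38.5 RPM with Dox and 227 to 328 RPM in control libraries. Over all day-9 libraries Nanos2 reached at most 0.976 RPM, Piwil4 26.1 RPM, Pnldc1 55.3 RPM and Dnmt3l 978 RPM, so most of the control sum is Dnmt3l. In these bulk samples, fewer cells of a type and less RNA per cell cannot be told apart, and the part of these marker differences in the members' values was not tested.

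**Figure D1:**
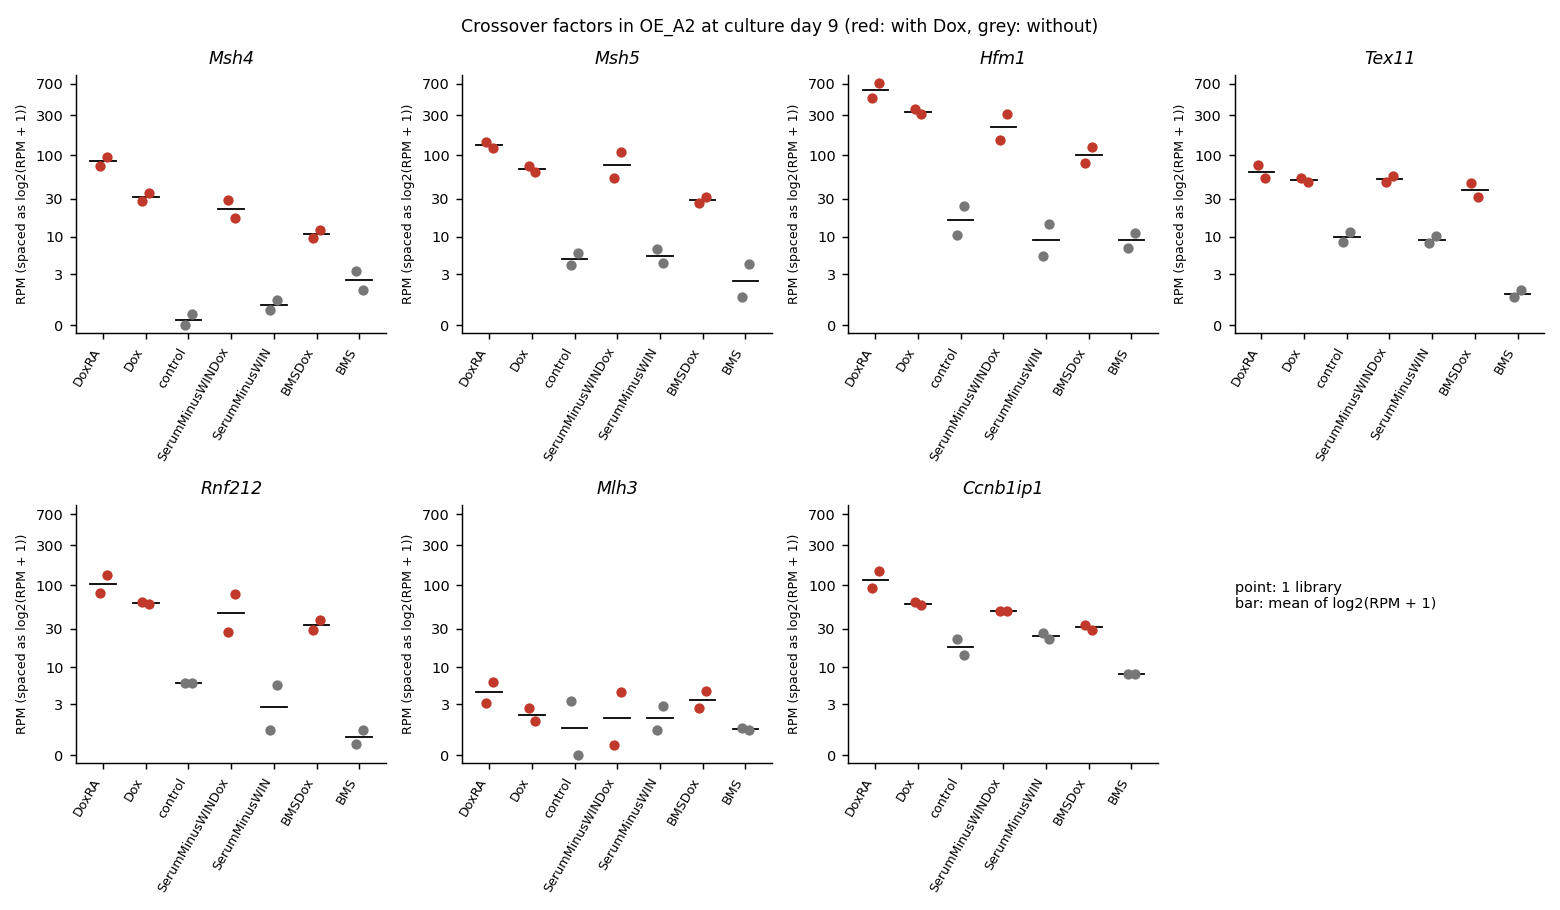
Levels of the 7 crossover factors in OE_A2 at culture day 9, as RPM on an axis spaced as log2(RPM + 1), with 1 point per library and a bar at the mean for each treatment. With Dox (red) every member but Mlh3 sits above its medium without Dox (grey): Hfm1 reaches 723 RPM with DoxRA, and Mlh3 stays under 10 RPM throughout.

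When retinoic acid was added to Dox, 1 of the 6 tested members was called, and that call did not hold in all settings. At day 9 Msh4 was higher with DoxRA than with Dox by 1.41 ± 0.46 (limma adjusted p = 0.017), where 4.28% of all tested genes were called higher. The other 5 changes were 0.94 for Msh5 (limma adjusted p = 0.18), 0.83 for Hfm1 (0.23), 0.75 for Rnf212 (0.33), 0.33 for Tex11 (0.71) and 0.95 for Ccnb1ip1 (0.046, under the fold threshold), with SE of 0.37 to 0.57. The Msh4 call was lost with a pseudocount of 0.5 RPM (adjusted p = 0.089), with array weights (0.16) and with edgeR on recovered reads (0.073). It was also lost without the first Dox library (change 1.25, limma adjusted p = 0.12), without the second Dox library (1.57, 0.052) and without the second DoxRA library (1.22, 0.13). Without the first DoxRA library Ccnb1ip1 was called as well (1.28, limma adjusted p = 0.029). On days 4, 5 and 7 no member was called between DoxRA and Dox (3, 5 and 6 tested), where 0.238%, 0.802% and 2.18% of genes were called in either direction. Stra8, a retinoic acid target, read 1150 and 1520 RPM with DoxRA, 575 and 613 RPM with Dox, and 376 and 287 RPM in control libraries.

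The induction was also measured in the other media. In SerumMinusWIN medium 5 of 6 tested members were called higher with Dox at day 9, where 13.3% of all tested genes were. Hfm1 read 153 and 305 RPM with Dox, against 5.59 and 14.7 RPM without, a change of 4.41 ± 0.51 (limma adjusted p = 7.5e-12). Msh4 read 28.9 and 17.2 RPM with Dox, against 0.508 and 0.959 RPM without. Msh5 (3.57), Rnf212 (3.69) and Tex11 (2.36) were the others called. Ccnb1ip1 read 49.4 and 49.8 RPM with Dox, against 26.9 and 22.7 RPM without, and its change of 0.98 ± 0.37 (limma adjusted p = 0.029) missed the fold threshold.

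With BMS all 5 tested members were called higher with Dox, where 14.8% of all tested genes were (9.16% with TMM factors, a scaling under which 46.4% of calls were higher, against 69.9% without it). Rnf212 read 29 and 38.8 RPM in BMSDox, against 0.375 and 0.976 RPM in BMS, a change of 4.39 ± 0.56 (limma adjusted p = 5.4e-10). Tex11 read 47.1 and 31.2 RPM in BMSDox, against 1.13 and 1.63 RPM in BMS (4.06 ± 0.57, limma adjusted p = 1.3e-08). Hfm1 read 81.4 and 124 RPM in BMSDox, against 7.13 and 11.4 RPM in BMS. The changes of Hfm1 (3.34), Msh5 (3.17) and Ccnb1ip1 (1.82) were called too. Msh4 read only 9.8 and 12.3 RPM in BMSDox, against 3.38 and 1.63 RPM in BMS, and was not tested because 1 library reached 10 RPM. Stra8 read 38.1 and 29.3 RPM in BMSDox and 1.13 and 1.63 RPM in BMS.

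The response of Msh4 to Dox was smaller with BMS than in control medium by 2.97 ± 0.65 on the log2 scale (limma adjusted p = 0.0048), where 0.31% of tested genes were called lower (0.534% with TMM factors, under which 53.9% of calls were higher, against 81.1% without it). The genes called in either direction, 164 with all libraries, were 8 to 210 without single ones. The difference lost its call without the first control library (-2.75, limma adjusted p = 0.085), without the first BMS library (-2.60, 0.061), with only the groups compared (0.07) and with edgeR (-5.22, 0.082). The responses of the other 5 tested members differed by -0.91 to 1.82, with limma adjusted p of 0.23 to 0.95. Between SerumMinusWIN and control medium the differences of response were -1.03 to 0.55 and none of the 6 was called, where 0.01% of genes were. Without Dox, no tested member was called in BMS against control medium (2 tested, 2.46% of all genes called, split 22.1% higher and 44.6% higher with TMM factors) or in SerumMinusWIN against control medium (3 tested, 0.022%). With no filter on low values 3 members were called between BMS and control medium: Tex11 (-2.21, limma adjusted p = 0.015) and Rnf212 (-2.12, 0.017) were lower with BMS, and Msh4 was higher (1.54, 0.033). The 2.46% is of the filtered test and does not apply to that setting. Without Dox, Msh4 read 3.38 and 1.63 RPM in BMS, against 0 and 0.359 RPM in control medium. Male prospermatogonia markers summed to 168 to 217 RPM in BMSDox and 322 to 991 RPM in BMS, and their part was not tested.

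With Dox or DoxRA against control medium, the members were not first called on the same day. After 4 days, Hfm1 (1.55 ± 0.51, limma adjusted p = 0.025), Tex11 (2.39 ± 0.57, 0.002) and Ccnb1ip1 (1.25 ± 0.37, 0.013) were already called higher with Dox than in control medium, where 6.01% of tested genes were. Tex11 then read 21.9 and 29 RPM with Dox, against 4.33 and 3.68 RPM in control libraries. With DoxRA at day 4, Hfm1 and Tex11 were called (9.04% of tested genes), and Ccnb1ip1 followed at day 5.

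Msh5 and Rnf212 were called from day 5 with DoxRA (16.3% of tested genes higher) and from day 7 with Dox (13.5%). Rnf212 at day 5 read 19.5 and 20.6 RPM with DoxRA, against 0.604 and 0.99 RPM in control libraries. Msh4 was called from day 7 in both treatments, last of the 6 with DoxRA, when 20.5% of genes were called higher with DoxRA. It read 10.4 and 9.88 RPM with DoxRA at day 5, just under the level needed for the test, and 49.1 and 36.2 RPM at day 7. A first call therefore also marks when a gene reached the level needed for the test. In DoxRA, Msh4 read 1.06 and 3.11 RPM at day 4, and Msh5 4.26 and 5.83 RPM.

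Tex11 alone had its highest group mean at day 7: it read 20.2 and 32.3 RPM at day 4, 59 and 53.9 RPM at day 5, 135 and 110 RPM at day 7 and 76 and 53.4 RPM at day 9 with DoxRA. The day-9 libraries with DoxRA lay below those of day 7, with a change of -0.92 ± 0.57 that was not called (limma adjusted p = 0.31). Hfm1 read 16 and 23.7, 63.5 and 61.3, 436 and 307, and 475 and 723 RPM on the same 4 days. No member was called between day 9 and day 7, where 0.111% of genes were called with Dox and 5.47% with DoxRA. Of the Dox and DoxRA libraries of days 4 to 7, all but 1 were extracted under another protocol text than the control libraries and those of day 9, so kit and treatment cannot be told apart in those contrasts. The exception is the second DoxRA library of day 7. A further sample label carries the same clone, day, treatment and replicate number, so that library's text rests on the label chosen. Every day-9 library had the same text. In SerumMinusWIN and BMS media, where the text did not differ, all 6 tested members were called higher with Dox at day 7, where 13.9% and 11.6% of genes were. With BMS the 1 member tested at day 4 and at day 5 was not called, where 4.88% and 7.39% of genes were higher. In SerumMinusWIN medium the 1 tested at day 4 was not called (2.33% of genes higher). At day 5, 1 of 2 tested was called there, Hfm1 (3.94% of genes). Tex11 and Ccnb1ip1 were thus first called at day 7 in these media.

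**Figure D2:**
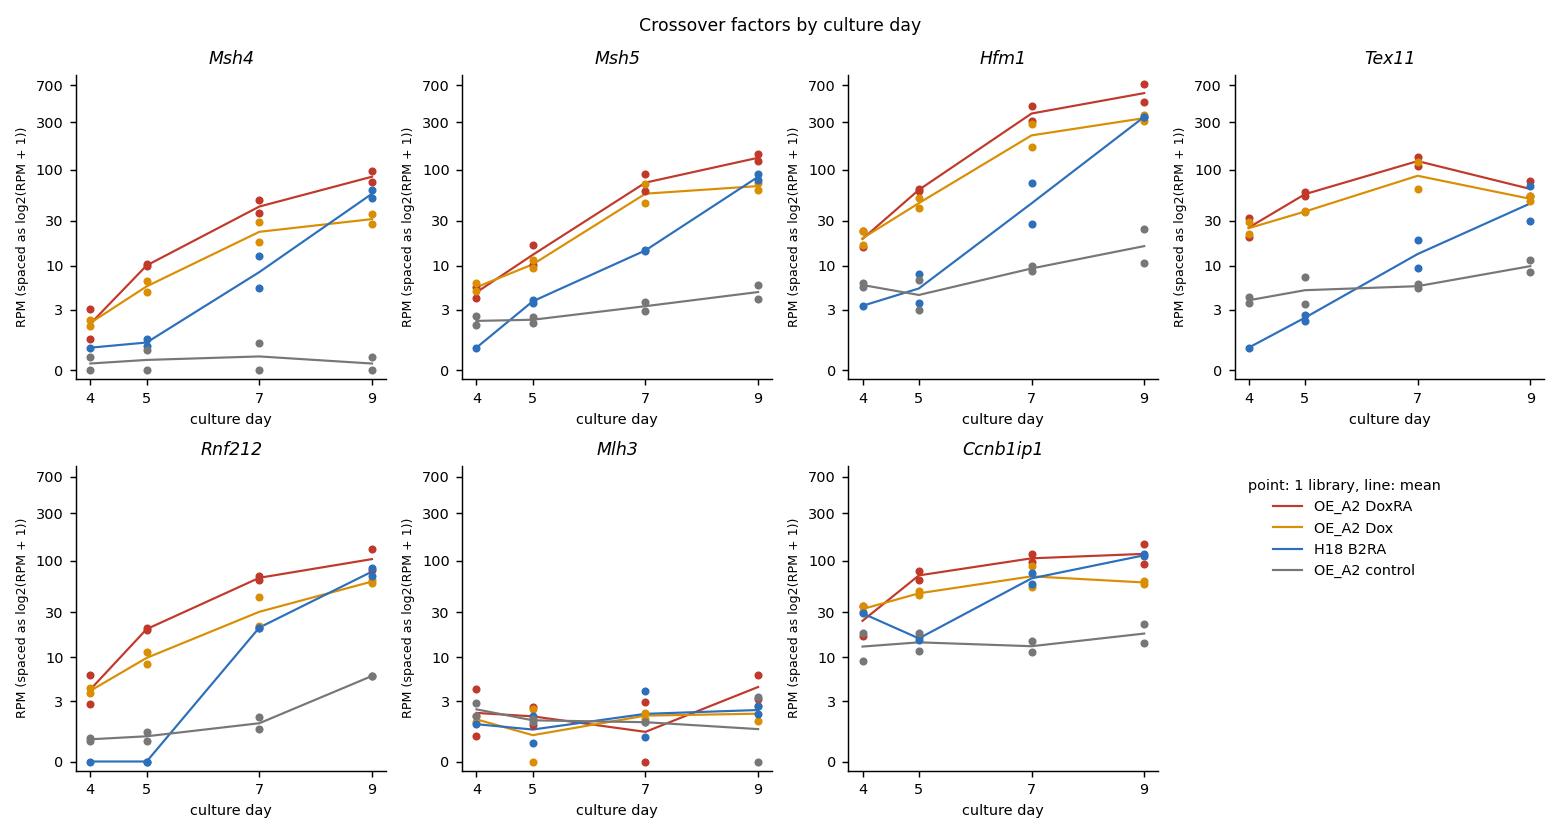
Levels of the 7 crossover factors by culture day in OE_A2 with DoxRA, Dox and control medium and in H18 with B2RA, as RPM on an axis spaced as log2(RPM + 1), with 1 point per library and lines through the means (H18 has 1 library at day 4). Tex11 peaks at day 7 in OE_A2 with DoxRA (135 and 110 RPM), and in H18 most members rise between day 5 and day 9.

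In the parent line H18 under B2RA the same members rose over the culture, and at day 5 most were still low. With B2RA, Rnf212 had no read in either library at day 3.5 or day 5, and had 20.8 and 20.8 RPM at day 7 and 71 and 85.6 RPM at day 9. Msh4 read 0 and 0, 1.06 and 0.737, 5.67 and 12.7, and 52.1 and 62.3 RPM on those 4 days. Between day 9 and day 3.5 all 6 tested members were called higher, where 29.8% of genes were. At day 9 OE_A2 with DoxRA exceeded H18 with B2RA by 0.05 (Ccnb1ip1) to 0.79 (Hfm1) on the log2 scale, with SE of 0.37 to 0.57. None of the 6 was called (12% of genes were called in either direction), which does not show that the levels were equal.

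Retinoic acid added to BMP2 raised 5 of 6 tested members in H18 at day 9, where 9.05% of genes were called higher, but the result rests on 1 BMP2 library. Msh5 read 78.8 and 90.7 RPM with B2RA, and 55.2 and 4.47 RPM with BMP2. Hfm1 read 339 and 339 RPM with B2RA, and 216 and 47.3 RPM with BMP2, and Msh4 read 52.1 and 62.3 RPM with B2RA, and 26.4 and 7.62 RPM with BMP2. For each of the 6, the first BMP2 library was above the second. The changes were 1.92 ± 0.46 for Msh4 (limma adjusted p = 0.00086), 2.29 ± 0.52 for Msh5 (0.00048), 1.73 ± 0.51 for Hfm1 (0.0072), 2.40 ± 0.56 for Rnf212 (0.00057) and 1.13 ± 0.37 for Ccnb1ip1 (0.016). Tex11 changed by 1.06 ± 0.57 (0.17). Without the second BMP2 library no member was called and the changes were 0.17 to 1.51. Without the first, all 6 were, with changes of 1.56 to 3.97. A fit of only these groups called 1 member, Rnf212. The calls over all genes moved too: 1.9% were higher with only these groups, and the genes called in either direction were 1538 with all libraries and 419 to 2280 without single ones. At day 7 none of 4 tested members was called between these treatments, where 4.53% of genes were. Feeder and stroma markers summed to 377 and 1050 RPM at the extremes with B2RA and 413 and 938 RPM with BMP2, and their part was not tested.

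In the Zglp1-/- clones most of the crossover factors were lower under B2RA than in H18. At day 9 all 6 tested members were lower in the Zko clones than in H18, where 21% of tested genes were called lower, and the median change of the 6 was -4.23, against -0.09 over all genes. Msh4 read 0.264 and 0 RPM in clone E5 and 0.906 and 1.35 RPM in clone G10, against 52.1 and 62.3 RPM in H18 (-5.23 ± 0.40, limma adjusted p = 1.1e-21). Msh5 read 8.69 and 14.2 RPM in E5 and 13.3 and 6.4 RPM in G10, against 78.8 and 90.7 RPM in H18 (-2.94 ± 0.45, 3.1e-08). The MutSγ genes thus differed in what remained: Msh4 was at or near 0, and Msh5 kept several RPM in each library.

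Hfm1 read 18.4 and 15.2 RPM in E5 and 21.7 and 11.1 RPM in G10, against 339 and 339 RPM in H18 (-4.31 ± 0.44, limma adjusted p = 8.2e-15). Tex11 read 5.01 and 0 RPM in E5 and 0.906 and 3.03 RPM in G10, against 68.4 and 30 RPM in H18 (-4.15 ± 0.49, 5.1e-12). Both were thus low in every Zko library. Rnf212 read 1.58 and 1.01 RPM in E5 and 6.34 and 1.68 RPM in G10, against 71 and 85.6 RPM in H18 (-4.63 ± 0.48, 1.9e-14). Ccnb1ip1 read 12.4 and 14.2 RPM in E5 and 20.2 and 18.9 RPM in G10, against 117 and 111 RPM in H18 (-2.75 ± 0.32, 1.8e-12). In none of the 6 did a Zko library reach the H18 libraries. This describes the levels printed, and the share of all genes whose libraries separate likewise was not counted. Mlh3 read 0.673 to 2.9 RPM in Zko and 2.61 and 1.96 RPM in H18, and was not tested.

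Within the Zko clones few members were called between treatments. Against control medium 1 of 3 tested members was called, Hfm1, with 11.1 to 21.7 RPM under B2RA and 4.63 to 10 RPM in control medium (1.1 ± 0.36, limma adjusted p = 0.015), where 6.63% of genes were called higher (4.53% with TMM factors, under which 45.2% of calls were higher, against 60.5%). That call was lost with TMM factors (change 0.96), with a pseudocount of 5 RPM (0.81), with array weights (adjusted p = 0.14), with only the groups compared (0.077) and with edgeR (0.085). It was also lost without the first E5 control library (1.03, limma adjusted p = 0.051), the first G10 B2RA library (0.87, 0.11) or the second G10 control library (1.01, 0.064). Against BMP2, 1 of 3 was called, Msh5, at 6.4 to 14.2 RPM under B2RA and 1.4 to 8.12 RPM with BMP2 (1.15 ± 0.37, limma adjusted p = 0.019), where 4.52% of genes were called higher (3.16% with TMM factors, under which 45.5% of calls were higher, against 61.9%). That call was lost with a pseudocount of 5 RPM (0.72), with array weights (adjusted p = 0.2), with only the groups compared (0.18), with edgeR (0.14) and without any of 4 single libraries: the first E5 BMP2 library (0.99, limma adjusted p = 0.085), the second E5 B2RA library (0.99, 0.11), the first G10 B2RA library (0.92, 0.13) and the second G10 BMP2 library (0.89, 0.14).

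With BMP2 alone, neither of 2 tested members was called in Zko against control medium, where 1.46% of genes were. Hfm1 changed by 1.15 ± 0.36 (limma adjusted p = 0.075), and by 1.44 (0.029) without the first G10 BMP2 library. Against H18 under BMP2, all 3 tested members were lower, where 9.56% of genes were (7.02% with TMM factors, under which 52.4% of calls were higher, against 38.8%): Hfm1 by -2.53 ± 0.44 (limma adjusted p = 3.7e-06), Tex11 by -3.25 ± 0.49 (1.4e-07) and Ccnb1ip1 by -2.09 ± 0.32 (1.5e-07). With TMM factors Tex11 (-3.11) was under the level filter, which left 2 members called. The H18 BMP2 libraries that disagree enter here too: without the first of them Hfm1 changed by -1.45 and was not called (0.074). With no filter on low values every member but Mlh3 (0.43) was called lower. The 9.56% is of the filtered test and does not apply to that setting. The B2RA responses of the clones E5 and G10 gave no call of a difference for any of 3 tested members, where 3.36% of genes were called. That share was unstable: the 335 genes became 13 to 1446 without single libraries, and 0 with only the groups compared.

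In the Stra8-/- clones B2RA raised the members, to levels under those of H18. Under B2RA all 5 tested members were higher than in control medium at day 9, where 15.7% of genes were called higher (10.5% with TMM factors, under which 56.3% of calls were higher, against 75.6%). Rnf212 read 26.3 and 35.4 RPM in clone B6 and 27.8 and 22.1 RPM in clone F6 under B2RA, against 0 and 1.19 RPM in B6 and 0 and 0 RPM in F6 in control medium (4.55 ± 0.39, limma adjusted p = 4.4e-18). As the control libraries held few or no reads, that size depends on the pseudocount, and it lay between 2.63 and 7.15 over the alternatives. Hfm1 read 45.9 and 56.8 RPM in B6 and 28.2 and 33.9 RPM in F6 under B2RA, against 2.39 to 7.83 RPM in control medium (2.73 ± 0.36, 4.2e-10). Ccnb1ip1 rose by 2.48 ± 0.26 (limma adjusted p = 4.8e-14), Tex11 by 1.98 ± 0.40 (2.6e-05) and Msh5 by 1.96 ± 0.37 (6.2e-06). Msh4 read 10.2 and 5.24 RPM in B6 and 9.89 and 8.46 RPM in F6 under B2RA, against 0.356 to 2.49 RPM in control medium, and was not tested since 1 library reached 10 RPM.

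Against H18 under B2RA, all 6 tested members were lower in Sko, where 13.5% of genes were. The largest differences were those of Hfm1 (-3.06 ± 0.44, limma adjusted p = 1.2e-08), Msh4 (-2.65 ± 0.40, 3.9e-08) and Msh5 (-2.37 ± 0.45, 1.1e-05). Tex11 (-1.75 ± 0.49, 0.0025), Rnf212 (-1.47 ± 0.48, 0.0095) and Ccnb1ip1 (-1.22 ± 0.32, 0.0011) differed by less. Ccnb1ip1 read 49.9 and 38 RPM in B6 and 56.8 and 51.1 RPM in F6, against 117 and 111 RPM in H18. Without the first H18 B2RA library Tex11 was not called (-1.17, limma adjusted p = 0.15), nor was Rnf212 without the second (-1.34, 0.091) or with a pseudocount of 0.5 RPM (0.053).

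Set beside the Zko clones under B2RA, the Sko clones were higher in 4 of 5 tested members, where 8.29% of genes were called higher: Rnf212 by 3.16 ± 0.39 (limma adjusted p = 2.9e-10), Tex11 by 2.40 ± 0.40 (1.4e-06), Ccnb1ip1 by 1.53 ± 0.26 (1.8e-06) and Hfm1 by 1.25 ± 0.36 (0.0044). Msh5 read 8.46 to 28.8 RPM in Sko and 6.4 to 14.2 RPM in Zko, and its difference of 0.56 ± 0.37 was not called (0.25). Msh4 read 5.24 to 10.2 RPM in Sko and 0 to 1.35 RPM in Zko, and was not tested. With no filter on low values Msh4 was called higher in Sko (2.58, limma adjusted p = 2.9e-10), as was its B2RA response (2.32, 0.00016). The shares of genes printed here are of the filtered tests and do not apply to that setting. The B2RA responses, each against the clone's own control medium, were also larger in Sko for Rnf212 (3.65 ± 0.56, limma adjusted p = 6.6e-07), Ccnb1ip1 (2.12 ± 0.37, 1.5e-05), Tex11 (1.68 ± 0.57, 0.038) and Hfm1 (1.63 ± 0.51, 0.022). Of all genes 6.33% had a larger response in Sko (5.05% with TMM factors, under which 67.6% of calls were higher, against 78.7%). The calls of Hfm1 and Tex11 depended on the setting and on single libraries. Array weights and edgeR ended both (adjusted p 0.071 to 0.39). A pseudocount of 0.5 RPM (0.085), no filter (0.057), TMM factors (0.061) and only the groups compared (0.25) ended that of Tex11. The Hfm1 call was lost without the second E5 B2RA library (1.57, limma adjusted p = 0.065), the first G10 control (1.54, 0.053), the second G10 B2RA (1.40, 0.079), the second B6 control (1.38, 0.095) or the second F6 control library (1.55, 0.055). The Tex11 call was lost without any of 9 single libraries: the first E5 control (1.19, limma adjusted p = 0.2), the second E5 B2RA (1.03, 0.31), the first G10 B2RA (1.41, 0.14), the second G10 control (1.52, 0.092), the first B6 control (1.62, 0.067), the first B6 B2RA (1.54, 0.1), the second B6 control (1.74, 0.058), the second F6 control (1.51, 0.11) and the second F6 B2RA (1.58, 0.084). Rnf212 and Ccnb1ip1 were called in every setting run.

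The clones of each genotype were compared as a check. No member's B2RA response was called different between B6 and F6 (5 tested, 0% of genes called). Msh5 read 22.4 and 28.8 RPM in B6 and 10.3 and 8.46 RPM in F6 under B2RA, a difference of response of 1.57 ± 0.74 (limma adjusted p = 1). Stra8 tags under B2RA read 423 and 688 RPM in B6 and 52.7 and 67 RPM in F6, and their relation to Msh5 was not tested. Feeder and stroma markers summed to 560 to 1260 RPM in Sko, 683 to 1070 RPM in Zko and 377 to 1050 RPM in H18 under B2RA, and germ cell markers to 1470 to 2400, 1680 to 2340 and 2780 to 2890 RPM. The part of these sums in the differences from H18 was not tested.

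**Figure D3:**
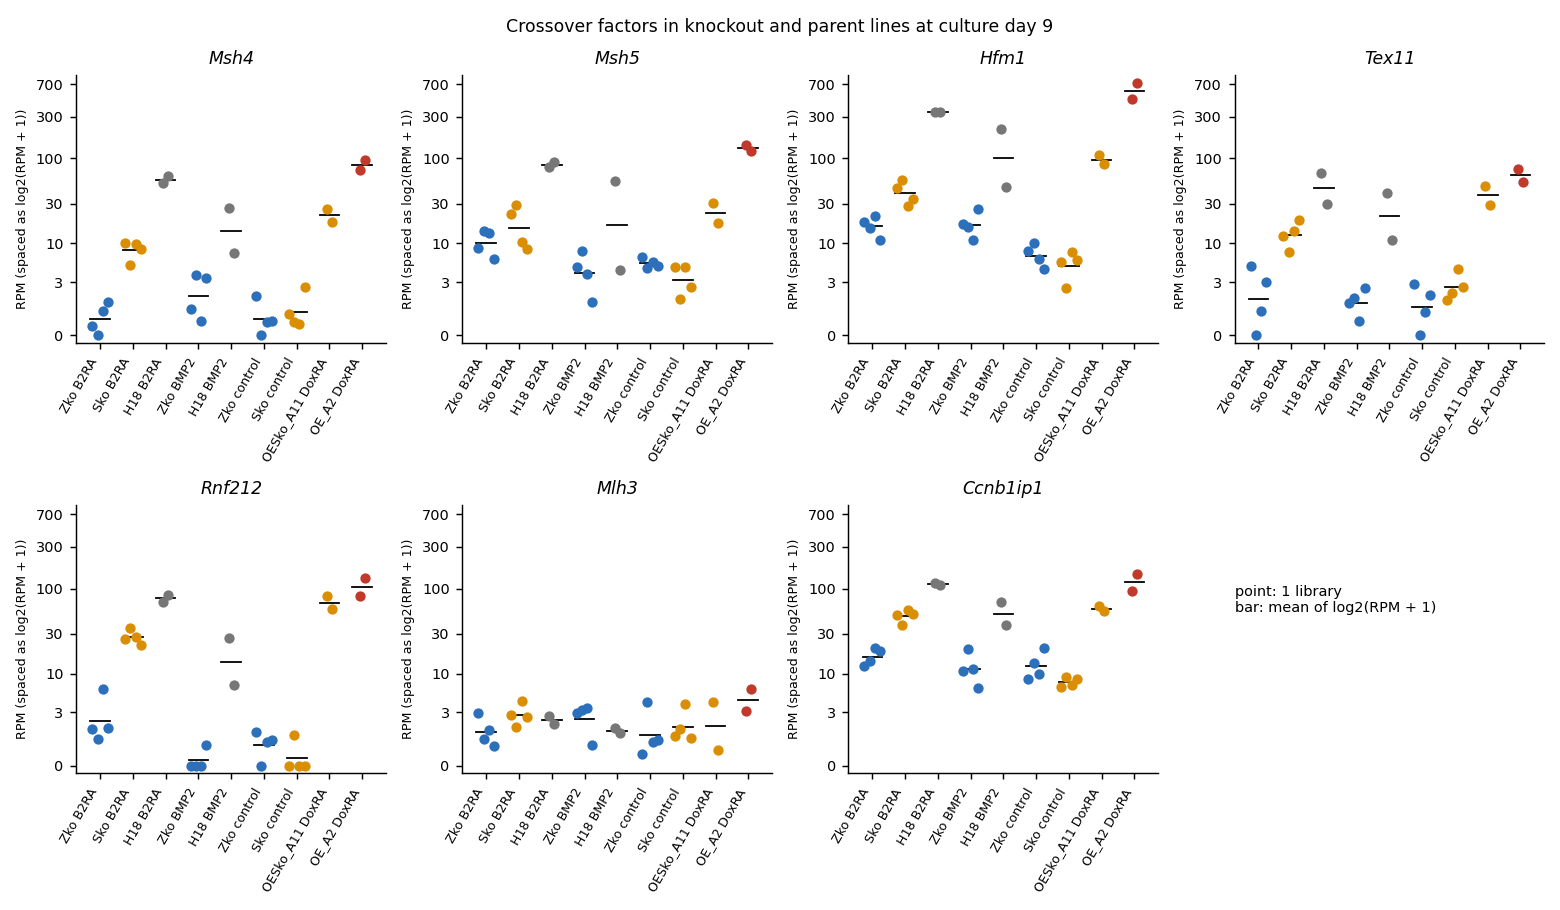
Levels of the 7 crossover factors at culture day 9 in Zko, Sko, H18, OESko_A11 and OE_A2, as RPM on an axis spaced as log2(RPM + 1), with 1 point per library and a bar at the mean. Zko and Sko hold 2 libraries from each of 2 clones: under B2RA Rnf212 reads 1.01 to 6.34 RPM in Zko, 22.1 to 35.4 RPM in Sko and 71 and 85.6 RPM in H18.

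With DoxRA in the Stra8-/- clone OESko_A11 the members rose, and 3 of the 6 stayed under their levels in OE_A2. In OESko_A11 all 6 tested members were higher with DoxRA than in control medium at day 9, where 13.5% of genes were (8.79% with TMM factors, under which 47.8% of calls were higher, against 67.2%). Msh4 read 25.7 and 18.4 RPM with DoxRA, against 0.431 and 1.65 RPM in control medium (3.55 ± 0.46, limma adjusted p = 8.7e-10, and 2.16 to 4.20 over the alternatives). Rnf212 read 81.4 and 59.1 RPM with DoxRA, against 1.72 and 3.29 RPM in control medium (4.36 ± 0.56, 5.6e-10). Hfm1 rose by 3.26 ± 0.51 (2e-07), Tex11 by 2.78 ± 0.57 (7.1e-05), Ccnb1ip1 by 2.39 ± 0.37 (1.5e-07) and Msh5 by 2.02 ± 0.52 (0.0017). The Msh5 call was lost without the first DoxRA library (1.65, limma adjusted p = 0.062) and without the second control library (1.71, 0.051).

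Against OE_A2 with DoxRA, 3 of the 6 were lower in OESko_A11 at day 9, where 11.5% of genes were. Hfm1 read 108 and 86.7 RPM in OESko_A11, against 475 and 723 RPM in OE_A2 (-2.59 ± 0.51, limma adjusted p = 1.4e-05). Msh5 read 30.5 and 17.9 RPM in OESko_A11, against 142 and 122 RPM in OE_A2 (-2.44 ± 0.52, 6.5e-05). Msh4 differed by -1.91 ± 0.46 (0.00035). The other 3 were not called, which does not show that the lines had equal levels. Rnf212 read 81.4 and 59.1 RPM in OESko_A11 and 81.7 and 133 RPM in OE_A2 (-0.58 ± 0.56, 0.41). Tex11 read 48.6 and 29 RPM in OESko_A11 and 76 and 53.4 RPM in OE_A2 (-0.75 ± 0.57, 0.29). Ccnb1ip1 read 63.8 and 54.7 RPM in OESko_A11 and 93.6 and 148 RPM in OE_A2 (-0.98 ± 0.37, 0.023, under the fold threshold), and it was called with TMM factors (-1.05), with edgeR (-1.11) and without the first OE_A2 (-1.31) or the first OESko_A11 (-1.09) DoxRA library.

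Measured as a difference of responses, each against the line's own control medium, Msh4 (-2.65 ± 0.65, limma adjusted p = 0.0013) and Msh5 (-2.43 ± 0.74, 0.011) responded less in OESko_A11, where 5.24% of genes were called lower. Hfm1 missed the threshold (-1.82 ± 0.72, 0.056), and Tex11 (0.22), Rnf212 (0.48) and Ccnb1ip1 (-0.26) were not called. With edgeR none of the 6 was called (adjusted p 0.073 for Msh4 and 0.07 for Msh5). Msh5 lost its call with array weights (0.061), without the first OE_A2 control library (-2.20, limma adjusted p = 0.059), without the first OESko_A11 control library (-2.12, 0.066) and without the second OESko_A11 DoxRA library (-2.07, 0.075). Hfm1 was called with TMM factors (-1.89, limma adjusted p = 0.044), with a pseudocount of 5 RPM (-1.94, 0.0042) and with only the groups compared (0.047). It was also called without the first OE_A2 DoxRA library (-2.12, limma adjusted p = 0.046), the second OE_A2 control library (-2.39, 0.025) or the first OESko_A11 control library (-2.18, 0.049). Germ cell markers summed to 2130 to 2450 RPM in OESko_A11 and 3010 to 3060 RPM in OE_A2 with DoxRA, and feeder and stroma markers to 807 to 1020 and 375 to 992 RPM. Male prospermatogonia markers summed to 65.8 to 77.6 RPM in OESko_A11 and 10.1 to 11.2 RPM in OE_A2, and gonadal soma markers to 18.9 to 26.2 and 10.1 to 10.4 RPM. The part of these sums was not tested. These lines are 1 clone each, so the Stra8 genotype and other differences between the clones cannot be told apart.

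At day 7 the gap between the lines was wider: all 6 tested members were lower in OESko_A11 than in OE_A2 with DoxRA, from -1.89 for Ccnb1ip1 to -3.94 for Hfm1, where 15.6% of genes were called lower. Rnf212 read 19.3 and 8.93 RPM in OESko_A11, against 70.7 and 64.4 RPM in OE_A2. Tex11 read 11.8 and 9.78 RPM in OESko_A11, against 135 and 110 RPM in OE_A2. These OE_A2 libraries lay far above those of OESko_A11, and at least 1 of them had the other extraction text. Within OESko_A11, Rnf212 with DoxRA was listed at 0 and 0.462 RPM at day 4, and read 2.84 and 0.826 RPM at day 5, 19.3 and 8.93 RPM at day 7 and 81.4 and 59.1 RPM at day 9.

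**Figure D4:**
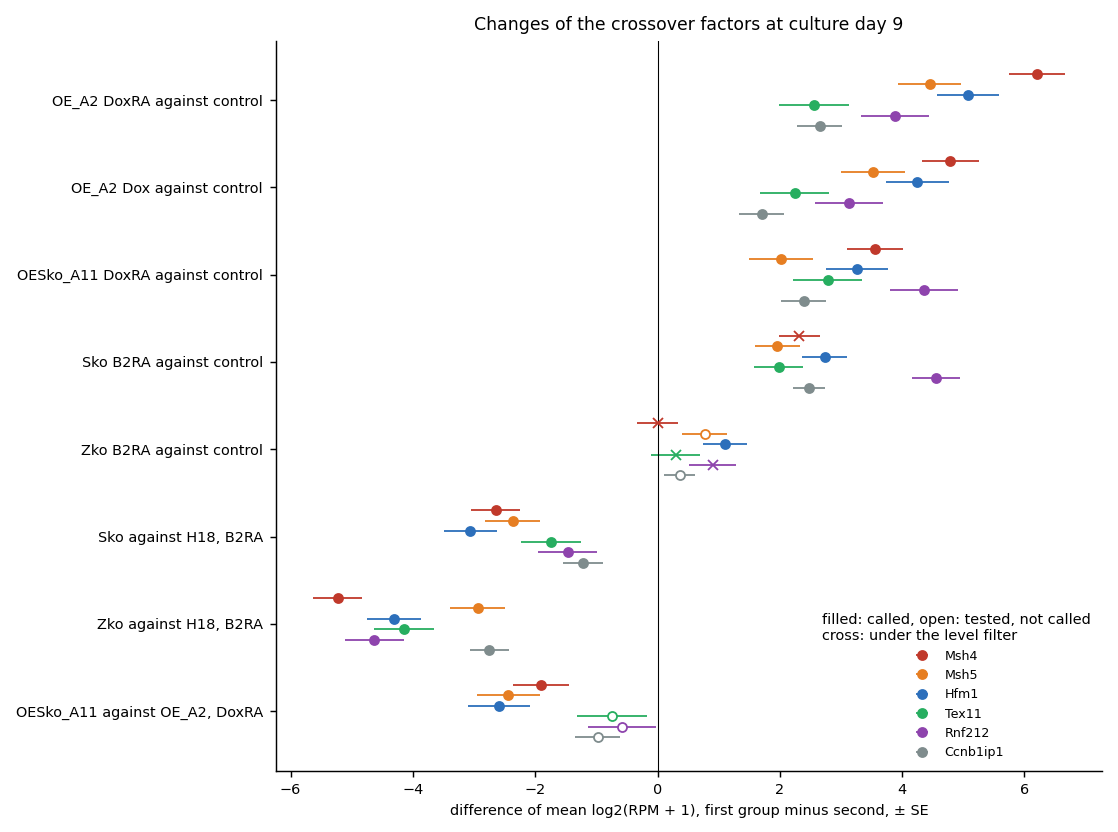
Changes of the 6 crossover factors with a fitted value, as differences of mean log2(RPM + 1) with SE, first-named group minus second, at culture day 9. Filled points were called, open points were tested and not called, and crosses were under the level filter. Under B2RA all 6 lie below 0 in Zko and in Sko against H18, and in OESko_A11 against OE_A2 only Msh4, Msh5 and Hfm1 are filled.

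Other genes of the pathway were read from lists of related genes. Of 10 genes of the synaptonemal complex and chromosome axis, all 10 were higher with DoxRA and with Dox in OE_A2 at day 9, with median changes of 4.18 and 3.67, and all 10 were lower in Zko than in H18 under B2RA (median -4.03). Sycp3, an axis component, rose by 4.46 ± 0.51 with DoxRA (limma adjusted p = 1.4e-12). Of 14 genes of break formation and strand exchange, 11 were higher and 1 lower with DoxRA, 11 were higher with Dox, and 11 were lower in Zko than in H18. Of all tested genes, 25.6% were called higher and 22.5% lower with DoxRA, 13.4% were called higher with Dox, and 21% were lower in Zko than in H18. Among the 14, Meiob, which encodes a single-strand DNA binding protein, rose by 5.39 ± 0.61 with DoxRA (limma adjusted p = 3.9e-13). Mnd1, which encodes a strand exchange cofactor, changed by -1.18 ± 0.22 (2.5e-06).

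The remaining crossover and joint-molecule genes were called in shares closer to those of all tested genes. Of 17 measured, 14 were tested with DoxRA and 6 were higher, 15 were tested with Dox and 3 were higher, and 4 of 15 were lower in Zko than in H18 under B2RA, beside 25.6%, 13.4% and 21% of all tested genes, so little is read from these counts. The median changes were 0.96, 0.22 and -0.64. Shoc1, the relative of yeast Zip2, changed by 5.00 ± 0.46 with DoxRA (limma adjusted p = 1.5e-17), 3.80 ± 0.46 with Dox (5.9e-11) and -5.16 ± 0.39 in Zko against H18 (1.5e-21). Gen1, a Holliday junction resolvase, rose by 1.31 ± 0.37 with DoxRA (0.0013) and 1.03 ± 0.37 with Dox (0.021). Cntd1, a cyclin-like crossover factor, rose by 1.21 ± 0.51 with DoxRA (0.034) and 1.25 ± 0.51 with Dox (0.047). Blm and Exo1, a helicase and a nuclease of general repair, changed by 0.19 and 0.23 with DoxRA and were not called.

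The mismatch repair relatives of MSH4, MSH5 and MLH3 did not form one pattern. Pms2, a mismatch repair endonuclease subunit, rose by 2.42 ± 0.28 with DoxRA (limma adjusted p = 7.5e-13) and 1.57 ± 0.28 with Dox (3.8e-06), and was lower in Zko than in H18 by -1.84 ± 0.24 (1.7e-10). Msh6, which works in general mismatch repair, changed by -1.30 ± 0.22 with DoxRA (3.4e-07). In counts, 1 of the 5 tested was higher and 1 lower with DoxRA and 1 of 6 was higher with Dox, near the shares of all tested genes.

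**Figure D5:**
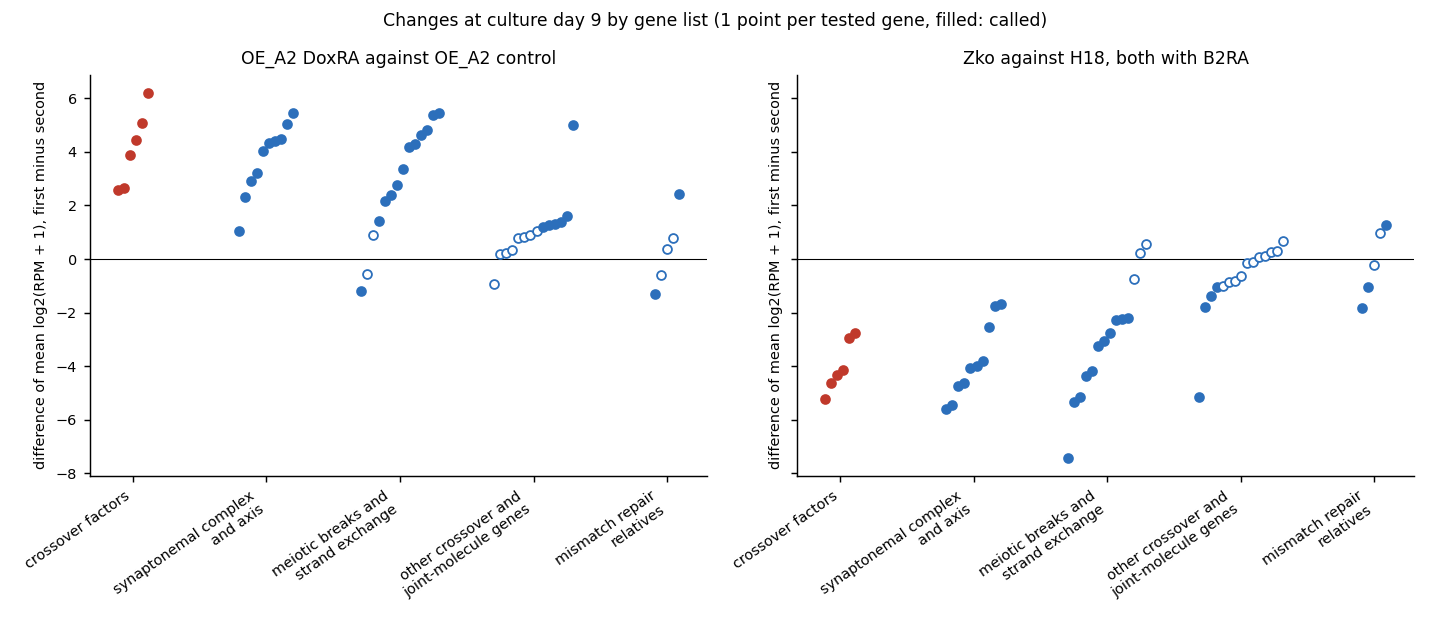
Changes at culture day 9 for the crossover factors (red) and 4 lists of related genes (blue), as differences of mean log2(RPM + 1), in OE_A2 with DoxRA against control medium and in Zko against H18 under B2RA. Each point is 1 tested gene, filled where called: all 10 synaptonemal complex and axis genes are filled in each panel, and the mismatch repair relatives spread on both sides of 0.

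Among themselves the 6 members with a group mean of at least 20 RPM in some group followed similar courses. Pearson r over the 98 group means of log2(RPM + 1) ran from 0.792 (Msh5 with Ccnb1ip1) to 0.932 (Msh4 with Hfm1). The genes most like each member, of 10127 genes compared, were Adad1 (r = 0.955) for Msh4, Ralgapb (0.93) for Msh5, Atr (0.965) for Hfm1, Sycp1 (0.926) for Tex11, Zfp541 (0.97) for Rnf212 and Fbxl5 (0.906) for Ccnb1ip1. The next in line, with predicted genes, clones named by number and the members themselves left unnamed, were Tex16 and Ccnb3 for Msh4, Nrip3 and Meiob for Msh5, Kdm5a and Ralgapb for Hfm1, Sycp2 and H2-K1 for Tex11, Tex101 and Sycp2 for Rnf212, and Taf11 and Tex30 for Ccnb1ip1, with r from 0.904 to 0.969. Groups share lines, treatments and depth, so these values are descriptions.

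In the embryo the same genes were high in fetal oocytes. Hfm1 read 484 RPM in E15.5 oocytes (exact Poisson 95% interval 459 to 511, counting error only) and 347 RPM in E14.5 oocytes (327 to 368), against 3.35 RPM in E9.5 primordial germ cells (1.83 to 5.62). Msh4 read 94 and 84.2 RPM in E15.5 and E14.5 oocytes, and Rnf212 94 and 60.9 RPM. In E9.5 germ cells neither had a read. A count of 0 was taken to allow up to 3 reads, here 0.717 RPM, a rule other than the Poisson interval above. Msh5 read 136, 106 and 1.67 RPM in E15.5 oocytes, E14.5 oocytes and E9.5 germ cells, Tex11 103, 111 and 4.07 RPM, and Ccnb1ip1 145, 127 and 5.98 RPM. Mlh3 was low in all 3, at 2.5, 3.94 and 2.39 RPM. With 1 library a stage there is no test, and no replicate check.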

How the data were processed

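RNA of mouse PGCLCs and embryonic germ cells was measured by 3′ RNA sequencing from 1 ng of total RNA. The deposited table gives RPM per gene, scaled by the authors to 1000000 reads over endogenous genes. Where 3 transgene rows lift a column's total above that, the deposited values were handled as a signal in the same unit. The submitters' processing notes name the build mm10 and the tools HTSeq 0.9.1, TopHat2 2.1.0, cutadapt 1.9.1, SAMtools 1.3 and Bowtie 1.1.2, with roles and annotation not given in the sources used here. Of 195 columns 194 matched the labels, 1 matched none and was not used, 2 of the 196 samples had no column, and 3 shifted lines were realigned. Whole reads were recovered from the RPM steps (100% of values within 0.05 of a whole read). Libraries held 877040 to 5196593 reads, and counting intervals cover counting error only, because the reads carry no stated molecular identifiers.

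The values log2(RPM + 1) were fitted in a single limma 3.58.1 model (R 4.3.3, trend and robust) over 12174 genes, the 191 PGCLC libraries and 98 groups. Clones were averaged with equal weight. p-values were adjusted (Benjamini-Hochberg) over all tested genes of a comparison. The all-gene median changes of 0.23 in BMSDox against BMS and in Sko B2RA against control medium, 0.21 in OESko_A11 and 0.11 in OE_A2 with DoxRA against control medium were 0.03 or less in size with TMM factors, and that of the OESko_A11 and OE_A2 responses was 0.17, and 0.1 with TMM factors. Alternatives were 2 other pseudocounts, no level filter, TMM factors, array weights, only the groups compared, a replicate block, edgeR 4.0.16 (quasi-likelihood, recovered reads, 42 day-9 libraries) and leaving out each library. The scripts were checked on simulated data with known changes. The members, lists and tests were chosen with earlier results of these data known. The genes named are the 7 members, genes of the lists, the 3 most like each member, and Zglp1 and Stra8. Motifs were searched on both strands of the RefSeq promoter windows, without Tex11. Some genes of the lists are not reported here.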

Additional observations from a re-analysis of the deposited data

Results flagged for a closer look

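For 7 of the results the response of a member differed between a pair of lines, genotypes or media at day 9, by a limma test of the difference itself. The Dox response of Msh4 was smaller with BMS than in control medium (-2.97, limma adjusted p = 0.0048), where 0.31% of genes were called lower. Msh4 was not tested in BMSDox against BMS, and its control libraries held few or no reads. The size lay between -5.22 and -1.71 over the alternatives, and the call did not hold in all of them. The DoxRA responses of Msh4 (-2.65, limma adjusted p = 0.0013) and Msh5 (-2.43, 0.011) were smaller in OESko_A11 than in OE_A2, where 5.24% of genes were called lower. The B2RA responses of Hfm1 (1.63, limma adjusted p = 0.022), Tex11 (1.68, 0.038), Rnf212 (3.65, 6.6e-07) and Ccnb1ip1 (2.12, 1.5e-05) were larger in Sko than in Zko, where 6.33% of genes were called higher. Of the 7 calls only those of Rnf212 and Ccnb1ip1 held in every setting run. With 2 libraries a group, single libraries were not tested as outliers.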

How the results depend on the processing

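Over the 25 comparisons of day 9, 1640 of the members' values under the alternatives had the direction and side of the threshold reported, 75 lost their call, 15 gained one and 0 reversed. The counts of members called kept within 1.5 times for Dox and DoxRA against control medium (6 in each), for Zko against H18 under B2RA (6), for Sko against H18 (6, and 5 to 6 without single libraries), for Sko against control medium (5) and for OESko_A11 against control medium (6, and 5 to 6). For DoxRA against Dox the count of 1 fell to 0 with a pseudocount of 0.5 RPM, array weights and edgeR, and was 0 to 2 without single libraries. In Zko, B2RA against control medium gave 1, and 0 with a pseudocount of 5 RPM, TMM factors, array weights, only the groups compared and edgeR (0 to 1 without single libraries). B2RA against BMP2 gave 1, and 0 with a pseudocount of 5 RPM, array weights, only the groups compared and edgeR, 2 with no filter, and 0 to 1 without single libraries. For H18 B2RA against BMP2 the count of 5 became 3 with array weights, 1 with only the groups compared and 0 to 6 without single libraries. With no filter, BMS against control medium gave 3 in place of 0, and Zko against H18 under BMP2 gave 6 in place of 3. The shares of all genes printed beside these comparisons are of the filtered tests. The differences of response gave 1 with array weights, 0 with edgeR and 1 to 3 without single libraries for OESko_A11 and OE_A2 (reported 2), 2 with array weights, 2 with edgeR and 2 to 4 for Sko and Zko (reported 4), and 0 with only the groups compared, 0 with edgeR and 0 to 1 for BMS (reported 1). The cause was not tested. Without single libraries the genes called in either direction also moved by over 1.5 times for BMS against control medium (222, and 22 to 417), Zko against H18 under BMP2 (1496, and 720 to 1944), Zko BMP2 against control medium (140, and 80 to 201), Zko B2RA against BMP2 (721, and 513 to 1247), the Sko and Zko responses (856, and 477 to 1486), DoxRA against Dox (1355, and 885 to 1570) and SerumMinusWINDox against SerumMinusWIN (2150, and 1421 to 2612). Where a library is left out of a pair, the lone library is assumed to vary like the other groups.

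Replicate numbers are shared by groups, but same-numbered libraries of a line did not deviate together throughout: over 12174 genes r was -0.03 to 0.33 in 21 pairs of OE_A2 groups, -0.13 to 0.21 in Zko_G10, 0.04 to 0.1 in Zko_E5, 0.2 in Sko_B6, 0.15 in Sko_F6, 0.1 in OESko_A11 and -0.09 in H18. Several values are above 0, but in no line with 3 or more pairs of groups was every pair over 0.1, so the libraries are taken to share only a number. With the replicate block, Zko BMP2 against control medium gave 1 called member in place of 0 (Hfm1, 1.15, limma adjusted p = 0.024, and 0 to 1 without single libraries) and OESko_A11 against OE_A2 gave 3 differing responses in place of 2, and the block changed no other call. The level of 10 RPM needed for the test left out Mlh3 in every comparison. It also left out other members, Msh4, Msh5, Tex11 and Rnf212 among them, where too few libraries reached it.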
